A study of Rattus norvegicus with 9 samples.

Results

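The comparison described here set the frontal cortex of 3 rats that had been separated from their mothers as pups and given electroacupuncture as adults (MS+EA, rats C3, C10 and C16) against that of 3 undisturbed rats (Control, rats A1, A2 and A6). These 6 rats were chosen by their group labels from 9 in the series, and all 16837 of the 37209 listed genes with enough reads were tested. The study asked how early maternal separation alters the adult cortex and what electroacupuncture does in such animals. All rats were male Wistar rats of 14 weeks. Separated litters were kept from the dam for 4 h a day from postnatal day 1 to 21, whereas Control litters were left alone until weaning. Electroacupuncture passes a weak current through needles, here at the GV20 and GV29 points of the head, at 2 Hz and 2 mA for 15 min on alternate days from postnatal day 61 to 81. By the study's methods Control and separated rats were also given the isoflurane anaesthesia. Because MS+EA rats differed from Control rats in both separation and electroacupuncture, the share of each in a difference cannot be told apart in this comparison. The values of 3 rats that were separated only (MS, rats B3, B4 and B6) are given beside it. Sham-stimulated rats were not analysed here.

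Maternal separation is a widely used model of early life stress in rodents, in which the loss of contact and warmth activates the stress axis of the pup. The adult frontal cortex, which takes part in mood and decision making, is a mixture of excitatory and inhibitory neurons, glia, vessels and, at its surface, meninges. In such bulk samples fewer cells of a type and less RNA per cell cannot be told apart. RNA-seq of ribosomal RNA-depleted total RNA counts protein-coding messages together with long non-coding RNAs, many of which stay in the nucleus, and with messages that lack a poly(A) tail, such as most histone messages.

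The libraries held 16153292 to 19007907 assigned reads in Control rats, 16106381 to 17243320 in MS rats and 12479905 to 14913736 in MS+EA rats, so the MS+EA libraries were the shallowest (exact permutation test between MS+EA and Control, two-sided p = 0.1, the smallest that 3 against 3 rats allow). The excitatory neuron gene Camk2a stood at 2542, 1969 and 2297 CPM (assigned reads scaled to a common library total) in Control rats and 1867, 1778 and 1664 CPM in MS+EA rats, so this marker of cortical neurons was present in every rat, and its difference of -0.36 on the log2 scale (edgeR, adjusted p = 0.0387) was under the fold threshold used below. Of the other leading cell type genes, the upper-layer gene Cux2 (207 against 186 CPM), the astrocyte glutamate transporter Slc1a2 (1765 against 1609 CPM), the myelin gene Mbp (1194 against 1401 CPM) and the microglial protease Ctss (108 against 106 CPM) did not pass the test. In the 15 cell type marker lists no gene passed both an adjusted p under 0.05 and a fold over 1.5. By the adjusted p alone 2 excitatory neuron genes, 2 of cortical layer 5 and 1 of astrocytes were lower and 1 endothelial gene was higher. The other lists held none, and among all tested genes the same rule gave 2.19% lower and 3.21% higher. Summed levels, in reads per library total, did not overlap between Control and MS+EA rats in 5 of these lists. Taken singly, 25.9% of all tested genes did not overlap. The 9 excitatory neuron genes summed to 4489 to 5127 CPM in Control and 3960 to 4104 CPM in MS+EA rats, although the median difference of its members was -0.01 on the log2 scale with 3 of 9 above 0. Oligodendrocyte precursor genes summed to 608 to 620.5 CPM against 555.7 to 592.1 CPM, and pericyte and smooth muscle genes to 169.4 to 185.2 CPM against 188.2 to 245.1 CPM. The 6 red blood cell genes summed to 95.6 to 196.5 CPM in Control rats and 214 to 308 CPM in MS+EA rats. The widest gap was that of the 11 meningeal fibroblast genes, which summed to 63.9, 55.1 and 56.2 CPM in Control rats, to 207, 79.0 and 317.6 CPM in MS+EA rats and to 76.0, 576.5 and 132.1 CPM in MS rats. Its median difference between MS+EA and Control was 1.94 on the log2 scale, with 10 of 11 genes above 0. The part of such shifts in the results below was not tested. Of the 11 meningeal genes, none was listed at 0 in an MS+EA rat.

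A gene was called when edgeR's quasi-likelihood test gave an adjusted p under 0.05 and the fold change was over 1.5. By this rule 230 genes (1.37% of those tested) differed between MS+EA and Control rats. Of them 210 (1.25%) were higher in MS+EA rats and 20 (0.119%) were lower, so that 91.3% of the calls were upward (exact binomial 95% interval 86.9 to 94.6%, counting error over genes only, which are not independent). The median fold of the upward calls was 1.74, with 64 genes over 2-fold and 11 over 4-fold, and the median fold of the downward calls was 1.73. The median difference of all tested genes was 0.01 on the log2 scale. Group levels did not overlap for 209 of the 210 upward and all 20 downward calls, against 25.9% of all tested genes. The rule itself favours genes whose groups lie apart, so this describes the calls and is not separate support. The p-values measure the spread between these rats, and how the rats were spread over litters or cages is not given in the sources used here.

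The upward lean depended on the fold threshold. With the adjusted p alone, 541 genes were higher (3.21% of those tested) and 369 were lower (2.19%), or 59.5% upward. The upward differences were larger, with a median fold of 1.42 against 1.28, and lay in less abundant genes, with a median level of 45.4 CPM against 105 CPM. When the fold threshold was placed inside the test, so that a gene had to exceed 1.5-fold beyond its error, 3 genes were called, namely Hist2h4a and ATP8 (higher) and LOC100360791 (lower), and 355 had a p below 0.05 before adjustment.

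The number of calls also depended on single rats. Without the Control rat A1, 71 genes were called, 62 of them higher and 9 lower. Without the MS+EA rat C10 there were 121 calls (100 and 21), and without the Control rat A2 154 calls (125 and 29). Without the Control rat A6 144 genes were higher and 11 lower, without C16 165 and 13, and without C3 221 and 40. The upward share stayed between 81.2 and 92.9% in these 6 fits. Of the 210 upward calls 45 were called in each of the 6 fits, as were 3 of the 20 downward calls, LOC100360791 and Junb among them.

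**Figure D1:**
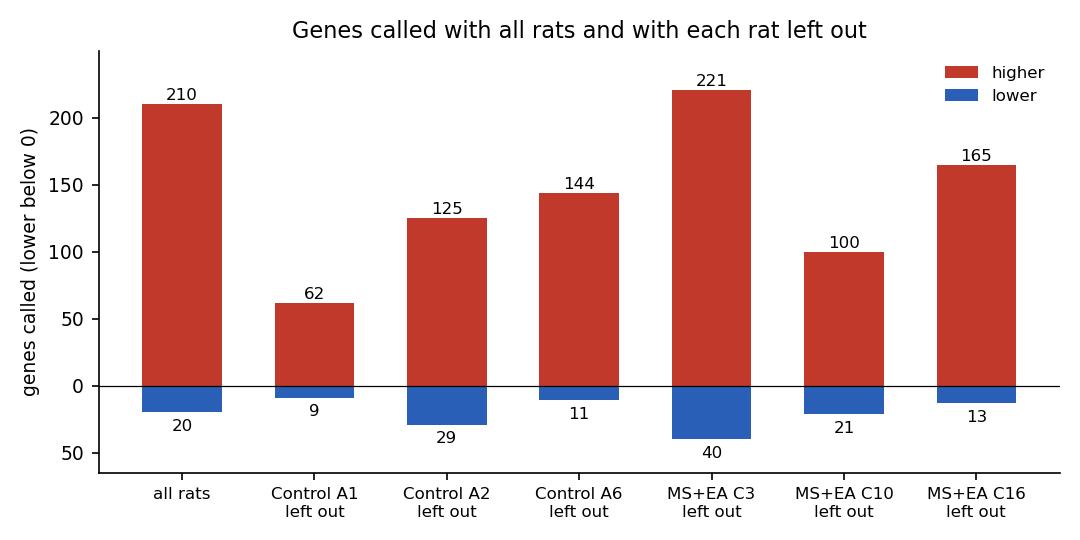
Number of genes called higher (above 0) and lower (drawn below 0) in MS+EA against Control rats (y axis) with all rats and with each of the 6 rats left out in turn (x axis). Upward calls fell from 210 to 62 without Control rat A1 and rose to 221 without MS+EA rat C3, and they outnumbered downward calls in every fit.

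By expression level, the calls were spread over the whole range but leaned upward at each level. The tested genes were divided into quartiles of average log2 CPM over the 9 rats, a level that is not scaled by gene length. From the lowest quartile (0.449 to 3.44 CPM) to the highest (50.6 to 18400 CPM), 33, 80, 62 and 35 genes were called higher and 4, 7, 7 and 2 lower. The median log2 difference of all genes in a quartile went from 0.12 in the lowest through 0.03 and -0.02 to -0.04 in the highest. The median standard error of a log2 difference was 0.411 in the lowest quartile and 0.0796 in the highest, so small differences could be detected only in abundant genes. There the adjusted p alone gave 257 genes higher and 274 lower, whereas in the second quartile it gave 84 higher and 16 lower. From the lowest quartile up, 37, 87, 69 and 37 calls with all rats became 2, 16, 25 and 28 without A1, 13, 42, 54 and 45 without A2, and 15, 44, 52 and 44 without A6. They became 34, 68, 94 and 63 without C3, 15, 34, 44 and 26 without C10, and 21, 56, 59 and 42 without C16.

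**Figure D2:**
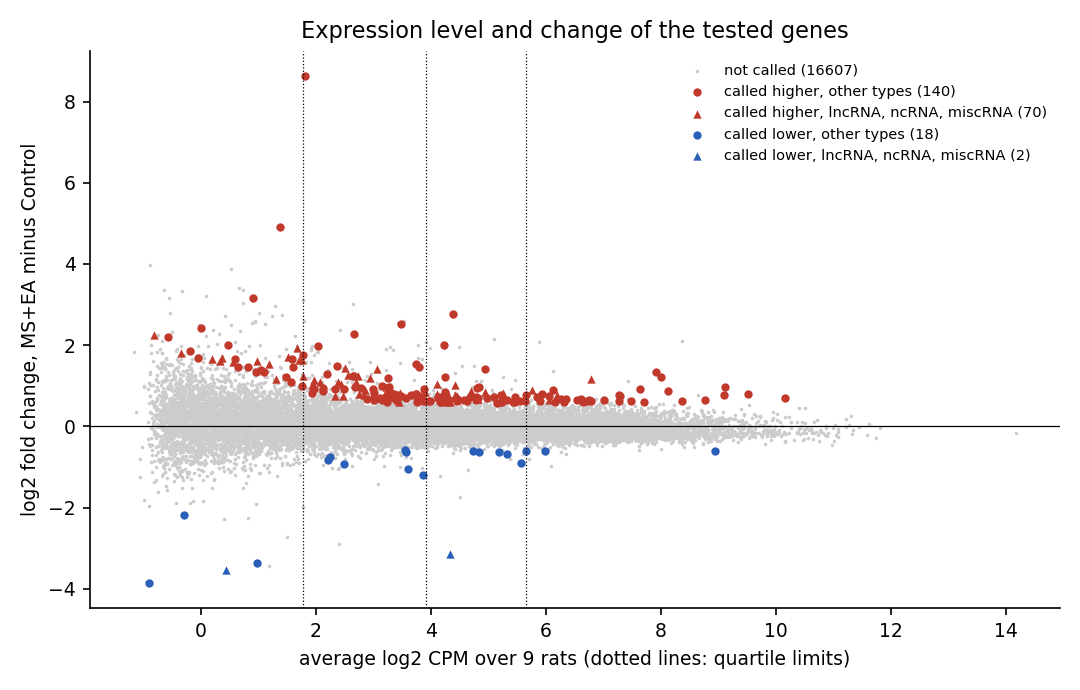
Log2 difference between MS+EA and Control rats (y axis) against average log2 CPM over the 9 rats (x axis), 1 point a tested gene, with the 210 genes called higher (red) and the 20 called lower (blue), triangles for non-coding genes and dotted lines at the quartile limits. Upward calls are found at all levels, and the spread of the points narrows towards abundant genes.

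By gene type, a larger share of non-coding genes than of messages was called with all rats, and the size of this excess rested on Control rat A1. Of 2146 such genes in the test (types lncRNA, ncRNA and miscRNA), 70 were higher and 2 lower (3.36% called), whereas 138 of 14575 mRNA genes were higher (0.947%) and 17 lower (0.117%). Non-coding genes made up 33.3% of the upward calls and 12.7% of all tested genes. Among them 47 of 1302 lncRNA genes, 16 of 596 ncRNA genes and 7 of 248 miscRNA genes were higher. These are the types given with the deposited counts. Of the 70 upward calls 18 (25.7%) matched the current RefSeq annotation (GRCr8), against 44.1% of the non-coding genes tested. In that annotation 3 of the 18 were protein-coding, 5 were lncRNA genes, 7 were pseudogenes and 3 were transcribed pseudogenes. The median log2 difference was 0.18 over non-coding genes and -0.01 over mRNA genes. Over the same non-coding genes the median was 0.00 for MS against Control and 0.19 for MS+EA against MS, which are comparisons that share rats with the one described. All non-coding reads together took 1.62, 1.82 and 1.81% of the counts in Control rats and 2.04, 2.13 and 1.90% in MS+EA rats (1.75 ± 0.112 against 2.03 ± 0.114%, SD, n = 3 each, exact permutation test p = 0.1). Every MS+EA rat lay above every Control rat, in the group with the shallowest libraries, and the part of depth in this was not tested. Without the Control rat A1 11 non-coding genes were called, or 0.482% beside 0.413% of all genes, and without C10 23, or 1.02% beside 0.705%. Without A2 there were 35 and without A6 46. When every gene with at least 1 count was tested, 1.64% of non-coding genes were called beside 1.81% of all genes, so that the order turned.

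By level, the share of non-coding genes called higher was lowest among the least abundant. In the lowest quartile 14 of 1400 non-coding genes were higher (1.0%) and in the next 33 of 532 (6.20%). In the third quartile 19 of 165 (11.5%) and in the highest 4 of 49 (8.16%) were higher, beside 43 of 4038 and 30 of 4156 mRNA genes. The non-coding call with the smallest p among those that rose, LOC102547183, an lncRNA gene, stood at 61.9, 58.4 and 84.3 CPM in Control rats, at 107, 101 and 116 CPM in MS rats and at 159, 176 and 127 CPM in MS+EA rats. Its levels did not overlap between Control and MS+EA, and its log2 difference was 1.18 ± 0.14 (SE; edgeR, adjusted p = 0.00299). The lncRNA genes LOC102547415 (1.02, adjusted p = 0.0048), LOC103692662 (1.19, adjusted p = 0.00576), LOC103693867 (0.81, adjusted p = 0.00711) and LOC103693584 (0.65, adjusted p = 0.0073) followed. The last of these was lost without C10.

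**Figure D3:**
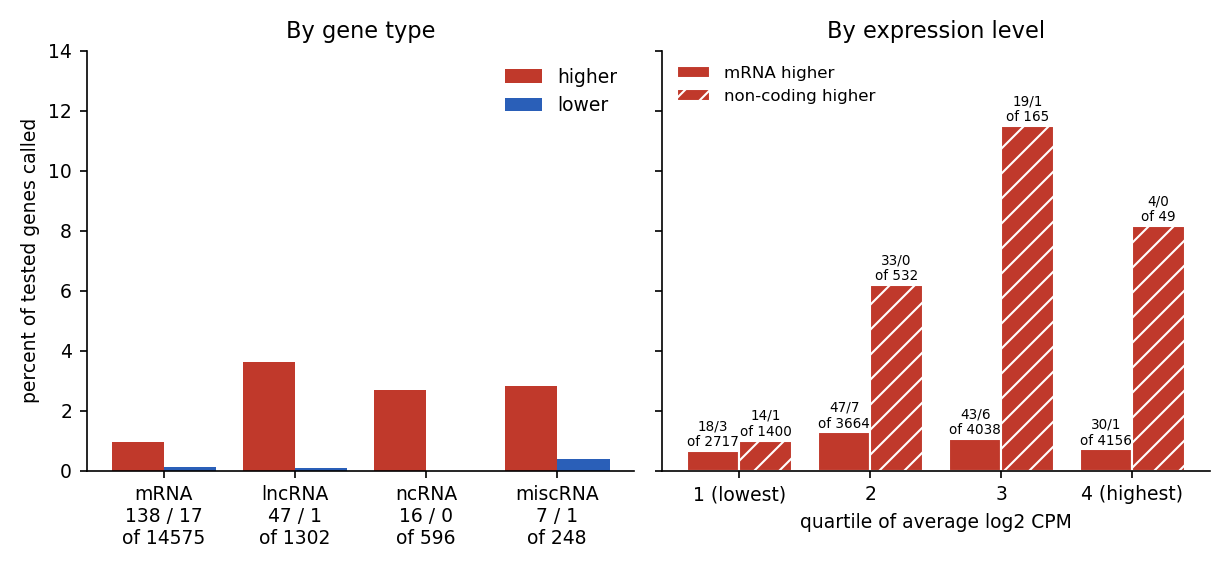
Percent of tested genes called higher or lower in MS+EA against Control rats (y axis), by gene type on the left and, for upward calls only, by quartile of average log2 CPM for mRNA and non-coding genes on the right (x axis). Numbers give higher and lower calls and the genes tested. Non-coding genes were called higher in 11.5% of the third quartile and 1.0% of the lowest.

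Many of the calls have no established name. Symbols made of LOC or RGD and a number accounted for 90 of the 210 upward calls (42.9%) and for 20.7% of all tested genes. In both directions together they were 97 of 230 calls (42.2%), and 17 of 71 (23.9%) without A1, 51 of 154 (33.1%) without A2, 63 of 155 (40.6%) without A6 and 36 of 121 (29.8%) without C10, so that without A1 their share was near that of tested genes. Of the upward calls 69.5% matched the current RefSeq annotation of the rat (assembly GRCr8), among them 12 pseudogenes and 3 transcribed pseudogenes. That assembly was used for current names and types, gene order, promoters and microRNA sequences, and not for the counts. Under current names, 10 of the LOC-named upward calls and 1 RGD-named downward call were zinc finger genes or their pseudogenes (chosen for mention after their values were seen). How many of the tested LOC or RGD genes carry such a name was not counted. No share of tested genes can therefore be set beside these counts, and they show no excess. Zinc finger genes of this kind form large families of near-identical copies, and how reads that fit several copies were counted is not given in the sources used here, so their counts are uncertain. Of 277 tested genes next to an upward call in that gene order, each counted once, 18 (6.5%, against 1.25% of all tested genes) were themselves called higher, such as Trim59 beside Smc4, Cul4b beside Mcts1, and LOC103690870 beside Mir384. Whether the counting used strand is not given in the sources used here, so reads of overlapping neighbours cannot be told apart.

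Among functional groups, factors of splicing and 3-prime end processing held the most called members after zinc finger genes. These proteins cut introns out of pre-messages and choose where a message ends. Of 147 tested members 7 rose (4.76%, against 1.25% of all genes) and none fell. The median difference was 0.13 on the log2 scale, with 105 members above 0, beside 8572 of all 16837 tested genes. With the adjusted p alone 24 were higher (16.3%, against 3.21% of all genes) and 1 was lower (0.68%, against 2.19%). Cpsf6, a subunit of the factor that selects poly(A) sites, stood at 190, 190 and 219 CPM in Control rats, 252, 286 and 295 CPM in MS rats and 346, 419 and 328 CPM in MS+EA rats. All MS+EA rats were above all Control rats, at 364 ± 48.0 against 200 ± 16.6 CPM (SD, n = 3 each), a log2 difference of 0.87 ± 0.099 (SE; edgeR, adjusted p = 0.00297). Prpf39, which acts with the U1 particle that marks the start of an intron, was at 45.8, 50.7 and 55.5 CPM in Control and 83.2, 93.1 and 79.1 CPM in MS+EA rats (0.75, adjusted p = 0.00299). Srsf1, a serine and arginine rich protein that promotes exon inclusion, was at 107, 113 and 116 CPM against 179, 219 and 182 CPM (0.79, adjusted p = 0.00385). The groups lay apart for both. Luc7l2, another U1-associated protein, rose by 0.68 (adjusted p = 0.0059), and Syncrip, an RNA-binding protein of the hnRNP family that takes part in the transport and translation of neuronal messages, was at 116, 114 and 122 CPM against 181, 218 and 189 CPM (0.75, adjusted p = 0.00299). All 5 of these genes kept their call without any one rat. MS rats lay between the groups for Cpsf6, Prpf39, Srsf1 and Syncrip. Their log2 differences from Control were 0.48, 0.31, 0.51 and 0.43 in that order and did not pass (edgeR, adjusted p = 0.11, 0.22, 0.108 and 0.11). The further differences from MS to MS+EA of 0.39, 0.44, 0.27 and 0.31 did not pass either (adjusted p = 0.207, 0.184, 0.311 and 0.243). For Luc7l2 the MS rats overlapped the Control rats. Some families were looked at only after their values had been seen. Of 19 hnRNP genes 2 were called and 16 were above 0, and of 11 SR protein genes 1 was called and 9 were above 0. Among all 16837 tested genes 1.37% were called and 8572 were above 0.

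Zinc finger transcription factors, most of which are thought to bind and silence DNA, held 8 upward calls among 290 named members (2.76%). They held no downward call, and among all tested genes 1.25% were called higher and 0.119% lower. By the adjusted p alone 23 were higher (7.93%, against 3.21% of all genes) and 1 lower (0.345%, against 2.19%). The median difference was 0.04, beside 0.01 for all genes. Of the 290 members 156 were above 0, beside 8572 of all 16837 tested genes. The list held 4 calls without A1 and 5 without C10. Zfp758 stood at 3.05, 2.32 and 2.36 CPM in Control rats, at 5.95, 5.13 and 5.35 CPM in MS rats and at 6.87, 7.77 and 6.995 CPM in MS+EA rats, a log2 difference of 1.48 ± 0.186 (SE; edgeR, adjusted p = 0.00374). Zfp347 (0.78, adjusted p = 0.00576), Zfp606 (0.95, adjusted p = 0.00856, lost without A1) and Zfp40 (0.64, adjusted p = 0.0137, lost without A1 or A2) were also higher. Lrif1, a chromatin protein that binds the heterochromatin protein HP1, was at 11.6, 11.8 and 12 CPM in Control and 24.1, 29.4 and 29.4 CPM in MS+EA rats (1.23, adjusted p = 0.00299).

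The widest difference of the comparison was that of Hist2h4a, which encodes the core histone H4. It had 1, 0 and 0 reads in Control rats, 0, 1 and 0 reads in MS rats and 182, 145 and 127 reads in MS+EA rats. Reads assigned to this gene were thus almost limited to the MS+EA rats, at 10.8 ± 1.58 CPM (SD, n = 3). That level was at least 61.2-fold higher than a floor of 3 counts a rat (edgeR, adjusted p = 4.04e-06). Hist2h4a was the 1 histone gene of 34 tested that was called (2.94%, against 1.25% of all genes called higher). Another H4 gene, Hist1h4b (named after its values were seen), was at 3.32, 3.23 and 3.61 CPM in Control and 3.61, 2.55 and 4.85 CPM in MS+EA rats, a log2 difference of 0.11 (adjusted p = 0.738). Histone H4 genes are near-identical copies, so the share of reads assigned to each is uncertain.

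Among genes of the ubiquitin system and of cell division, the shares called higher stand beside 1.25% of all genes. Trim59, a RING-type ubiquitin ligase, was at 5.78, 6.34 and 5.78 CPM in Control and 13.8, 14.7 and 12.4 CPM in MS+EA rats (1.19 ± 0.136, SE; edgeR, adjusted p = 0.00297). Fbxo30, an F-box protein, rose by 0.73 (adjusted p = 0.00711). These were 2 of 137 tested genes of the Trim, Fbxo, Fbxl and Usp families (1.46%, near that background), whose median was -0.03. Of 7 cullins, scaffolds of ubiquitin ligases chosen after their values were seen, Cul3 (0.62, adjusted p = 0.00876) and Cul4b (0.64, adjusted p = 0.00829) were called, and kept their calls in 3 and 5 of the 6 fits without a rat. Of 96 helicase, DNA repair and replication genes 2 rose (2.08%), the condensin subunit Smc4 and Rad51ap2, at mean levels of 3.03 and 2.16 CPM in MS+EA rats. Of 41 motor genes 2 rose (4.88%), the dynein light chain Dynlt3 (0.68, adjusted p = 0.0175) and the mitotic kinesin Kif20b (1.46, adjusted p = 0.0288). Smc4, Rad51ap2 and Kif20b each kept their call in 1 of the 6 fits without a rat, and Dynlt3 in 3.

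Genes of neuronal signalling and growth are given with the share of their list called higher, beside 1.25% of all genes. Gria2, the AMPA receptor subunit that makes the receptor nearly impermeable to calcium, stood at 323, 330 and 347 CPM in Control rats, 400, 448 and 499 CPM in MS rats and 489, 624 and 468 CPM in MS+EA rats. All MS+EA rats were above all Control rats, while MS and MS+EA rats overlapped, and the log2 difference between MS+EA and Control was 0.66 ± 0.107 (SE; edgeR, adjusted p = 0.00856, lost without A1 or C10). It was the 1 call among 17 ionotropic glutamate receptor genes (5.88%), whose median was -0.11. Its partner subunit Gria1, named after its values were seen, had a log2 difference of -0.28 (adjusted p = 0.0712). Pcdh7, a protocadherin adhesion molecule, was at 150, 133.9 and 154 CPM against 238, 421 and 357 CPM (1.22, adjusted p = 0.0048), and was at 251, 278 and 314 CPM in MS rats. It was 1 of 74 cadherin genes called (1.35%). The growth factor Igf1 was at 13.0, 13.0 and 13.5 CPM against 24.9, 20.3 and 24.0 CPM (0.81, adjusted p = 0.00745), with MS rats at 18.1, 23.5 and 19.96 CPM. Igf1 was the 1 call among 18 tested genes of the growth factor and neurotrophin list (5.56%). Pcdh7 and Igf1 kept their calls without any one rat. Arhgap5, a GTPase-activating protein, rose from 252 ± 15.7 to 389 ± 9.02 CPM (SD, n = 3 each; 0.63, adjusted p = 0.00299). The abundant messages Serinc1, a membrane protein named for serine incorporation (0.69, adjusted p = 0.0131, lost without A1 or C10), and Igip (0.77, adjusted p = 0.00576) rose as well. No gene was called among 34 postsynaptic scaffolds, 49 synaptic vesicle genes, 17 GABA receptor genes or 76 potassium channel genes. At the 1.37% called among all genes, lists of these sizes would hold few calls, so the absence says little. The scaffolds had a median of -0.23 with 7 of 34 above 0. By the adjusted p alone 5 of them were lower (14.7%, against 2.19% of all genes) and 2 higher (5.88%, against 3.21%).

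**Figure D4:**
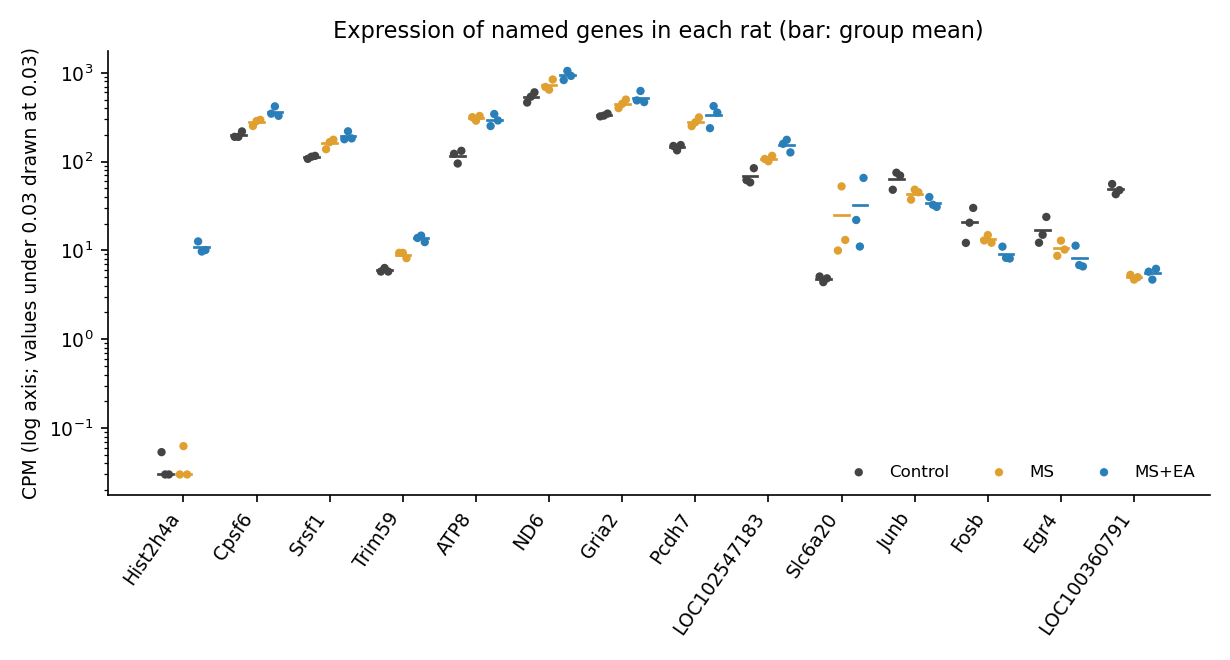
Level in CPM (y axis, log scale, values under 0.03 drawn at 0.03) of 14 named genes in each Control, MS and MS+EA rat (1 point a rat, bar at the group mean). For Cpsf6 the MS+EA rats sit between 328 and 419 CPM and the Control rats between 190 and 219 CPM, and Hist2h4a is near 0 in all rats but the MS+EA rats.

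Some of the upward calls with the widest folds had wide spread among the treated rats. Slc6a20, a proline transporter, was at 5.08, 4.39 and 4.85 CPM in Control rats, 9.97, 52.6 and 13.1 CPM in MS rats and 21.99, 11.1 and 65.5 CPM in MS+EA rats (2.77 ± 0.69, SE; edgeR, adjusted p = 0.0393). Slc2a12, a sugar transporter, was at 2.57, 3.66 and 2.49 CPM, 5.71, 27.5 and 9.26 CPM and 15.8, 6.57 and 27.9 CPM in the same order (2.52, adjusted p = 0.0317). In both, rats C16 and B4 were the highest of their groups and rats C10 and B3 the lowest, which is also the order of the summed meningeal fibroblast genes. Chrnb3, a nicotinic receptor subunit, had 2, 3 and 0 reads in Control rats, 15, 170 and 25 in MS rats and 51, 21 and 58 in MS+EA rats, at least 18-fold higher than the floor of 3 counts a rat (adjusted p = 0.0329), with the same highest and lowest rats. All 3 calls were lost without A1, A2, A6 or C16. The part of meningeal tissue in these differences was not tested. Collagens, many of which fibroblasts make, had a median of 0.52 with 32 of 35 above 0. They held 1 call (Col26a1, 2.86%, against 1.25% of all genes called higher), which was lost without any one of the 6 rats. Acsm5 and Acsm3, enzymes that activate fatty acids, and their neighbour Pdilt, all named after their values were seen, were high in MS rats and in MS+EA rats C10 and C16, but not in C3. Acsm5 was at 5.46, 5.06 and 3.61 CPM in Control rats, 40.7, 20.4 and 34.6 CPM in MS rats and 5.62, 18.2 and 33.6 CPM in MS+EA rats (2.01, adjusted p = 0.0358). Acsm3 in C3 (1.18 CPM) lay within the Control range of 0.642 to 1.46 CPM, and it was the single upward call whose groups overlapped. Acsm5, Acsm3 and Pdilt each kept their call in 1 of the 6 fits without a rat.

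Messages of the mitochondrial genome, which encode subunits of the respiratory chain, changed unevenly. Of 13 genes 3 rose (23.1%, against 1.25% of all genes), and the median log2 difference was 0.11. By the adjusted p alone 5 were higher (38.5%, against 3.21% of all genes) and 1 lower (7.69%, against 2.19%). ATP8, a subunit of ATP synthase, stood at 122, 95.2 and 132 CPM in Control rats, 316, 289 and 326 CPM in MS rats and 251, 343 and 291 CPM in MS+EA rats (1.34 ± 0.126, SE; edgeR, adjusted p = 0.000686). The levels in MS and MS+EA rats overlapped, both above Control. ND6 (0.80, adjusted p = 0.00711) and ND4 (0.92, adjusted p = 0.0161, lost without A1 or A6), subunits of complex I, were the others. ND1, named after its values were seen, was lower by 0.47 on the log2 scale (-0.47, adjusted p = 0.0217), under the fold threshold. ND6 is encoded on the strand opposite to most of these genes and ATP8 overlaps ATP6, so that without known strand handling their reads are uncertain. All mitochondrial messages together took 3.05 to 3.14% of the counts in Control and 2.82 to 3.10% in MS+EA rats. The mitochondrial ribosomal RNA Rnr2 was higher (457, 234 and 372 against 592, 931 and 560 CPM; 0.97, adjusted p = 0.0311) and the nuclear ribosomal precursor Rn45s lower (606, 555 and 769 against 438, 426 and 413 CPM; -0.60, adjusted p = 0.0265). The Rnr2 call was lost without A2, A6 or C10 and the Rn45s call without A1, A6, C10 or C16. Both come from libraries in which ribosomal RNA was removed, and the part of that removal was not tested.

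Mir384 was the 1 upward call among 61 tested genes typed as microRNA (1.64%, near the 1.25% of all genes), whose median difference was 0.27. It stood at 0.482, 1.10 and 0.684 CPM in Control rats, 1.52, 0.938 and 0.962 CPM in MS rats and 2.98, 2.35 and 1.83 CPM in MS+EA rats (1.66 ± 0.386, SE; edgeR, adjusted p = 0.0308), apart from Control but at few reads, and was lost without A1, A6, C3 or C10. The lncRNA gene next to it, LOC103690870 (named after its values were seen), was also higher, at 5.94, 7.81 and 7.71 CPM against 15.4, 12.9 and 9.94 CPM (0.84, adjusted p = 0.031), a call kept in 1 of the 6 fits without a rat. In libraries of long RNA such reads come from precursor or host transcripts and do not measure the mature microRNA. The mature 5-prime strand is shown because it carries the same seed as the miR-30 family (bases 2 to 8, in capitals, the part that pairs with target messages). Both sequences are from RefSeq, miR-384-5p at chrX:74490939-74490961 on the minus strand and miR-30a-5p at chr9:33233946-33233967 on the plus strand of GRCr8. The Mir30 genes listed with that seed were not among the tested genes.
miR-384-5p: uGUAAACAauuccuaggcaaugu
miR-30a-5p: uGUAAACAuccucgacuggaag

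Immediate early genes, which neurons switch on within minutes of activity, leaned downward. Of 19 tested members 3 fell (15.8%, against 0.119% of all genes) and none rose. All 19 had a difference below 0, with a median of -0.54 on the log2 scale. Junb, a partner in the AP-1 transcription factor, stood at 48.2, 75.0 and 69.6 CPM in Control rats, 37.3, 48.3 and 45.2 CPM in MS rats and 39.9, 32.6 and 30.9 CPM in MS+EA rats. The MS+EA rats lay below all Control rats (-0.90 ± 0.159, SE; edgeR, adjusted p = 0.0116). Fosb, another AP-1 protein, was at 12.1, 20.5 and 30.1 CPM against 11.0, 8.24 and 8.11 CPM (-1.19, adjusted p = 0.0256), and the zinc finger factor Egr4 at 12.2, 15.001 and 23.8 CPM against 11.3, 6.83 and 6.60 CPM (-1.04, adjusted p = 0.0418). For both the highest MS+EA rat, C3, was close to the lowest Control rat, A1. Fos, named after its values were seen, was at 15.9, 32.2 and 25.7 CPM against 16.9, 5.76 and 8.74 CPM (-1.23, adjusted p = 0.0538) and Arc was at 154, 254 and 296 CPM against 229, 89.9 and 149 CPM (-0.59, adjusted p = 0.227), and neither passed. The list's median of log2 CPM minus the Control mean was -0.39, 0.25 and 0.14 in Control rats and -0.31, -0.71 and -0.54 in MS+EA rats, so that rat A1 lay among the MS+EA rats. The number of calls in the list was 1 without A2, A6, C10 or C16, 5 without A1 and 6 without C3. Fosb was lost without A2, A6, C10 or C16, and Egr4 without any rat but C3, whereas Junb was kept in all 6 fits. The MS rats stood at -0.52, -0.34 and -0.11.

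The promoters of these 3 genes are shown because the genes moved together, from 250 bases before to 50 after the start in RefSeq (GRCr8). Capitals mark the letters TGACG or, on the other strand, CGTCA, the half-site of the cAMP response element TGACGTCA through which activity can reach such genes. Junb lies at chr19:40080876-40081175 on the plus strand, Fosb at chr1:88089135-88089434 and Egr4 at chr4:119607768-119608067 on the minus strand.
Junb: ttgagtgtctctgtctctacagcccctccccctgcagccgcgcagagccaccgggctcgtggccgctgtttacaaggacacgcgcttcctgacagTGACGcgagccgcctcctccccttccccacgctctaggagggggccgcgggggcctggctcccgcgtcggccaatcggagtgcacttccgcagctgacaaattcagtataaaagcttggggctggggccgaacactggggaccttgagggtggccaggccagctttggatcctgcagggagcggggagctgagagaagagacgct
Fosb: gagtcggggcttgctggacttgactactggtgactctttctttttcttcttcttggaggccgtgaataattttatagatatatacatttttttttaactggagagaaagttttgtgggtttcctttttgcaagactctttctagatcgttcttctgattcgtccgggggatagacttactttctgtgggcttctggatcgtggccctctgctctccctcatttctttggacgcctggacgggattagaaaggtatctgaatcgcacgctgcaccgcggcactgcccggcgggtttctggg
Egr4: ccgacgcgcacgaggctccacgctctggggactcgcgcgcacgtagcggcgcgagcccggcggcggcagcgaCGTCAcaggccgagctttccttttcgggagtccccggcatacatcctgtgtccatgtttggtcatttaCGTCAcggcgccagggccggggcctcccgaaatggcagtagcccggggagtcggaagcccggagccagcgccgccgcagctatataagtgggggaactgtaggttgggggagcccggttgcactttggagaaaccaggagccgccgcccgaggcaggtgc
Junb held 1 half-site, Egr4 held 2 and Fosb held none in this window. Of 14 immediate early genes with a promoter among those given 9 held a half-site (64.3%), against 6030 of all 27457 promoters and 30.6% of the 11805 promoters of tested genes. The full element was in 3 of the 14, none of them Junb, Fosb or Egr4. It was in 3.06% of the promoters of tested genes and in 1.91% of all promoters. A match of letters is not a bound site.

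The other downward calls were few and mixed. LOC100360791, listed as a miscRNA and currently named Tpt1l3, fell the most clearly, from 55.9, 42.9 and 47.7 CPM in Control rats to 5.76, 4.69 and 6.20 CPM in MS+EA rats (-3.14 ± 0.141, SE; edgeR, adjusted p = 2.81e-07). MS rats were at 5.31, 4.69 and 4.99 CPM, in the range of MS+EA rats. Tpt1, the gene it resembles by name (mentioned after its values were seen), was at 215, 212 and 199 CPM in Control and 294, 274 and 344 CPM in MS+EA rats (0.54, adjusted p = 0.0073), and the sharing of reads between such copies is uncertain. Hspbp1, a co-chaperone of Hsp70, fell by 0.62 (-0.62, adjusted p = 0.0125). It was the 1 call of 71 heat shock genes (1.41%), beside 1.37% called and 0.119% called lower among all genes. Morn4 fell by 0.60 (-0.60, adjusted p = 0.0073) and the neural adhesion molecule Chl1 by 0.63 (-0.63, adjusted p = 0.0255). Hspbp1, Morn4 and Chl1 were each lost in at least 3 of the 6 fits without a rat. Gtpbp6, a predicted GTP-binding protein, was at 7.28, 4.88 and 0.560 CPM in Control and 0.278, 0.469 and 0.477 CPM in MS+EA rats (-3.37, adjusted p = 0.0252), and its Control level rested on A1 and A2.

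Of 57 lists with a tested gene 17 held a call. Lists of function or cell type held 32 of the 210 upward calls (15.2%) and 4 of the 20 downward calls, beside 2530 of the 16837 tested genes (15%), so that the listed genes were called higher about as often as all genes. No call was made among 81 cytoplasmic ribosomal protein genes (median -0.11, and -0.01 without C10), 15 glucocorticoid-induced genes (median -0.38, with 1 above 0, and 0.05 without Control rat A6) or 138 centrosome and cilium genes (median 0.07). The glucocorticoid-induced genes, which corticosterone switches on, did not separate the groups, since the MS+EA rat C16 (0.02) lay among the Control rats (-0.29, -0.23 and 0.37) on the log2 scale.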

How the data were processed

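Total RNA of the frontal cortex was depleted of ribosomal RNA, sequenced, and aligned by the authors with HISAT2 2.0.4 to Rnor 6.0 (per the submitters' processing notes). The deposited values are read counts per gene for 9 rats. The counting program, its strand setting and its handling of reads with several matches are not given in the sources used here. Genes were kept by edgeR's filterByExpr (minimum count 10), which left 16837 of 37209, and 11255 had no count. Counts were scaled by TMM and fitted over all 9 rats with edgeR 4.0.16 (quasi-likelihood, R 4.3.3), with no covariate, since the labels give no batch. Adjusted p-values are Benjamini-Hochberg over all tested genes, and the biological coefficient of variation was 12.7%. CPM values use the TMM-scaled library sizes. The code was tested on simulated data. Totals of 12479905 to 19007907 reads set the precision, and intervals and floors cover counting error only.

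The rats, gene lists and tests were chosen with earlier results of these data known. Named genes were, per direction, the 10 calls with the smallest adjusted p whose groups did not overlap, the 5 with the largest fold at a mean of at least 1 CPM, the 5 non-coding calls with the smallest adjusted p, the 5 most abundant calls, up to 4 calls a gene list, and the most abundant gene of each cell type list. Genes outside the rule are marked, and 1 gene that the rule names is not reported here. Alternatives were DESeq2 1.42.0, limma 3.58.1 and other edgeR tests, other scalings and filters, other fold rules, the 6 rats alone, and each rat left out.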

Additional observations from a re-analysis of the deposited data

Results flagged for a closer look

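Zfp334, a zinc finger gene that was below the filter and so not tested, had 6, 4 and 4 reads in MS+EA rats C3, C10 and C16 and 0 reads in each Control rat. In MS rats it had 0, 2 and 0 reads. It was looked at because it was the 1 untested gene above 3 reads in every MS+EA rat and at 0 in every Control rat. No other result met a rule for a closer look, and groups of 3 rats were not tested for outlying samples.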

How the results depend on the processing

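Leaving out 1 rat at a time gave 71 to 261 calls, 62 to 221 higher, 9 to 40 lower, 11 to 57 non-coding and 81.2 to 92.9% upward. DESeq2 gave 43 lower calls and 86.4% upward. The likelihood ratio test of edgeR gave 418 calls, 362 higher, 56 lower, 120 non-coding and 86.6% upward. Scaling by total counts gave 12 lower calls and 95.1% upward. Testing genes with at least 1 count gave 469 calls, 405 higher, 64 lower, 111 non-coding and 86.4% upward. No fold threshold gave 910 calls, 541 higher, 369 lower and 59.5% upward, and the threshold inside the test gave 3 calls, 2 higher, 1 lower, 1 non-coding and 66.7% upward. The cause of these shifts was not tested, other than the fold rules, which differ by construction. Signs changed in 4 genes that were not called, at Tle4 (-0.05 without A6 to 0.11 without A2), Mbp (-0.05 without C3 to 0.48 without C10), Ctss (-0.15 without C3, 0.02 without A1 and 0.10 without C10) and Abcc9 (0.00 without A2 to 0.21 without A6). The other scalings, filters and tests kept the counts of all, higher, lower and non-coding calls within 1.5 times. A check of gene length and GC content was not run, because promoters matched only 11805 of 16837 tested genes and the lengths are of another build. No paired analysis was possible because Control and MS+EA rats have no replicate number in common. With 3 rats a group and the shallowest libraries in MS+EA, small differences in genes of low level were not detectable at this depth.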
